A study of Mus musculus with 20 samples.

Results

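Tetrathiomolybdate (TM) and N-acetylcysteine (NAC) were given alone and together in a 2 by 2 design, and the interaction between them was measured in the gastrocnemius, the large calf muscle. All animals were male C57BL/6N mice, and the 4 groups were controls, mice given TM for 28 days, mice given NAC for 28 days and mice given both compounds for 28 days (TM+NAC). Each group had 5 libraries of poly(A)-selected RNA, and all 20 libraries of the series were used. The interaction of a gene is the TM effect in the presence of NAC minus the TM effect in its absence, (TM+NAC minus NAC) minus (TM minus Control), on the log2 scale. It is above 0 where TM raised a transcript more, or lowered it less, when NAC was given too. The members were the 9696 genes, of 31618 in the deposited table, with a mean of at least 1 FPKM (fragments per kilobase of transcript and per M fragments, M standing for 1e6) over the 20 libraries. The labels used here state neither age nor dose.

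TM binds copper in a stable complex with proteins and lowers the copper that cells can use. Copper enters cells through the transporter Slc31a1 and is handed by chaperones to the enzymes that need it, among them cytochrome c oxidase in the mitochondria, superoxide dismutase and the lysyl oxidases that cross-link collagen and elastin. NAC is a thiol compound that supplies cysteine for glutathione, the main small antioxidant of the cell, and thiols can bind metals as well. Where each compound acts without regard to the other, the fold change of TM is the same with and without NAC and the interaction is 0.

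Library totals ran from 54.7 to 90.7 M counts with a median of 63.3 M. Levels are given as scaled counts per M (CPM), and in a library of median depth 1 CPM is 63.3 counts. The 15 muscle fibre markers summed to between 173900 and 229400 CPM in every library and were thus abundant throughout, as in the labelled tissue. A pair of libraries stood apart from their groups. NAC library 4 had the most counts, the highest share of mitochondrial transcripts (20.3%, against 13.1 to 18.9% in the other 19) and the lowest scaling factor (0.874), and both it and TM library 1 lacked brain-typical transcripts that the other treated libraries held. Whether TM library 1 and NAC library 4 belong to the groups their labels name was not tested, and each interaction with all libraries rests on those labels. The libraries carry replicate numbers, but nothing in the labels ties each to an animal of its own, and a p-value therefore reflects differences among these libraries that could be technical.

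A single gene, Lox, passed the test of the interaction (edgeR quasi-likelihood, Benjamini-Hochberg adjusted p under 0.05 over all 9696 genes), which is 0.0103% of the genes tested. At an unadjusted p under 0.05 there were 706 genes (7.28%), of which 340 (3.51%) lay above 0 and 366 (3.77%) below it, where 485 would be expected from a test with no signal. The median interaction over all genes was -0.0038, and 49.4% of genes lay above 0. The median standard error (SE) of a gene's interaction was 0.17 on the log2 scale, against 0.12 for either TM effect alone, since the interaction carries the error of all 4 groups. In simulated data with 50 genes changed at each fold size, the test recovered 28% of genes given a 1.5-fold interaction, 72% at 2-fold, 92% at 3-fold and 100% at 4-fold. So many true changes ease the Benjamini-Hochberg cut, and no simulated library was made to stand apart from its group. These shares therefore do not carry over to the real fit. There Thbs1 (log2 2.64, edgeR adjusted p = 0.11) and Kif5a (-3.29, edgeR adjusted p = 0.597) did not pass, so interactions well over 2-fold could also be missed. For the component effects, no gene passed for TM against Control with edgeR (327 at an unadjusted p under 0.05, 3.37%), and 3 genes (0.0309%) passed for TM+NAC against NAC (1154 at an unadjusted p under 0.05, 11.9%). All 5 TM libraries lay above all 5 controls in 26 genes (0.268%) and below in 17 (0.175%), and all 5 TM+NAC libraries lay above all 5 NAC libraries in 140 genes (1.44%) and below in 115 (1.19%).

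**Figure D1:**
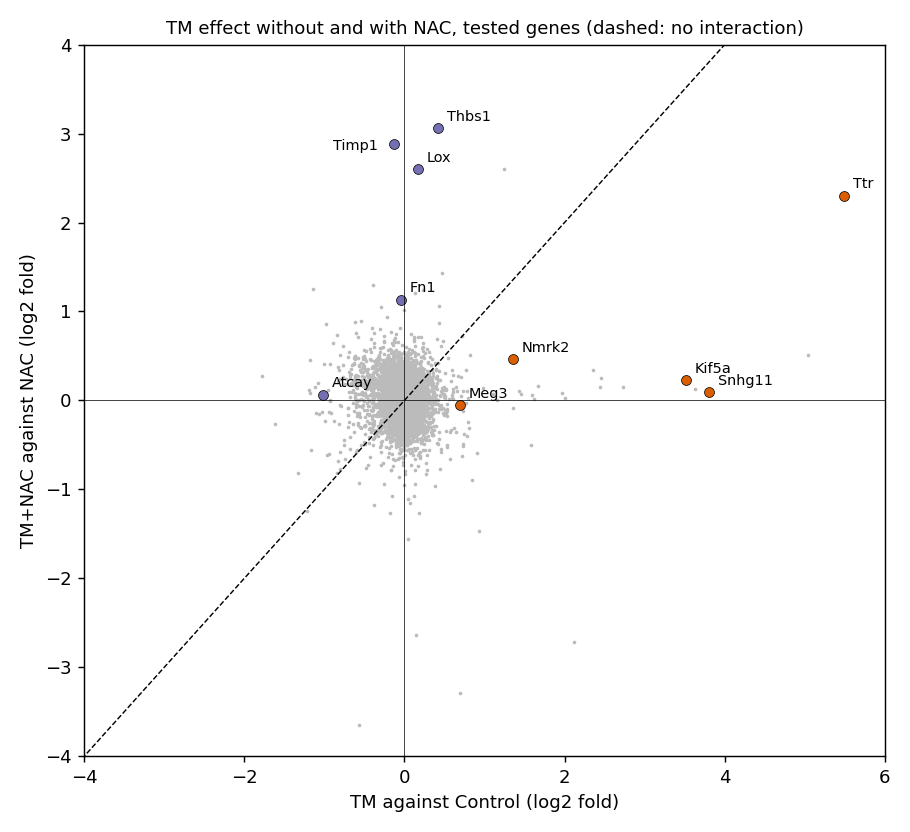
TM effect without NAC (x axis, TM against Control) and with NAC (y axis, TM+NAC against NAC), both as log2 fold, for 9691 of the 9696 tested genes, with 5 outside the plotted range. The dashed line marks equal effects, so a gene's vertical distance from it is its interaction; Lox, Thbs1, Fn1 and Timp1 lie above it near an x value of 0, and the brain-typical transcripts Kif5a and Snhg11 lie below it near a y value of 0.

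Lox encodes lysyl oxidase, the secreted copper enzyme that starts the cross-linking of collagen and elastin (ENSMUSG00000024529, GRCm38 chr18:52516067-52529867, minus strand). Its level was 4.20, 5.19, 9.80, 4.36 and 6.60 CPM in the controls and 10.6, 5.31, 7.17, 6.23 and 4.45 CPM with TM. With NAC it was 7.90, 4.53, 10.02, 8.05 and 5.34 CPM, and with TM+NAC 33.7, 39.6, 39.9, 36.9 and 67.8 CPM. All 5 TM+NAC libraries thus lay above the other 15, and the other groups overlapped. TM alone gave a log2 fold of 0.16, and TM on top of NAC gave 2.60. The interaction was 2.44 ± 0.38 (SE; edgeR adjusted p = 0.0287), and the TM+NAC mean of 43.6 CPM stood against 8.03 CPM if the folds of the single compounds had multiplied. The sign held in every alternative run, but the call did not: with 1 library left out, Lox passed in 8 of 20 fits, and it was lost without Control 2, 3 or 5, TM 2, 3, 4 or 5, NAC 1, 2 or 5, or TM+NAC 2 or 5, with log2 interactions of 2.19 to 2.66 over the 20 fits.

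The matrix genes Thbs1, Fn1 and Timp1 had the same form without passing. Thbs1 encodes thrombospondin-1, a matrix glycoprotein that can activate latent TGF-beta (chr2:118111876-118127133, plus strand). Thbs1 stood at 3.64, 7.79, 5.92, 3.40 and 10.3 CPM in controls, 14.6, 10.5, 7.53, 3.96 and 5.06 CPM with TM, 3.57, 4.91, 9.85, 4.46 and 6.27 CPM with NAC, and 40.1, 48.3, 47.8, 40.8 and 65.9 CPM with TM+NAC. No TM+NAC library overlapped the others. The Thbs1 interaction was 2.64 ± 0.49 (edgeR adjusted p = 0.11), and its TM+NAC mean of 48.6 CPM compared with 7.79 CPM if the folds had multiplied.

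Fn1 encodes fibronectin, the glycoprotein onto which collagen fibrils are assembled (chr1:71585520-71653175, minus strand). The Fn1 controls were at 43.7, 53.1, 49.9, 31.9 and 57.9 CPM and the TM libraries at 62.9, 52.0, 40.6, 42.9 and 31.4 CPM. The NAC libraries were at 49.8, 50.9, 53.4, 38.8 and 54.0 CPM and the TM+NAC libraries at 90.4, 94.8, 110.5, 105 and 141 CPM. Again the 5 TM+NAC libraries lay above all others, here by a smaller factor. The interaction was 1.18 ± 0.24 (edgeR adjusted p = 0.287), with a mean of 108 CPM against 48.0 CPM if folds multiplied. Lox, Thbs1 and Fn1 were the 3 genes that rose with TM+NAC against NAC (edgeR adjusted p of 7.78e-05, 0.000173 and 0.00592).

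Timp1 encodes an inhibitor of the metalloproteinases that break down matrix (chrX:20870166-20874735, plus strand). Its levels were low: 0.145 to 0.649 CPM in controls, 0 to 0.708 CPM with TM with 2 libraries at 0, 0.295 to 0.776 CPM with NAC, and 2.88, 2.996, 2.94, 2.93 and 6.86 CPM with TM+NAC. All TM+NAC libraries were above the rest, and library 5 was above the other 4. The interaction was 3.01 ± 0.92 (edgeR adjusted p = 0.597).

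**Figure D2:**
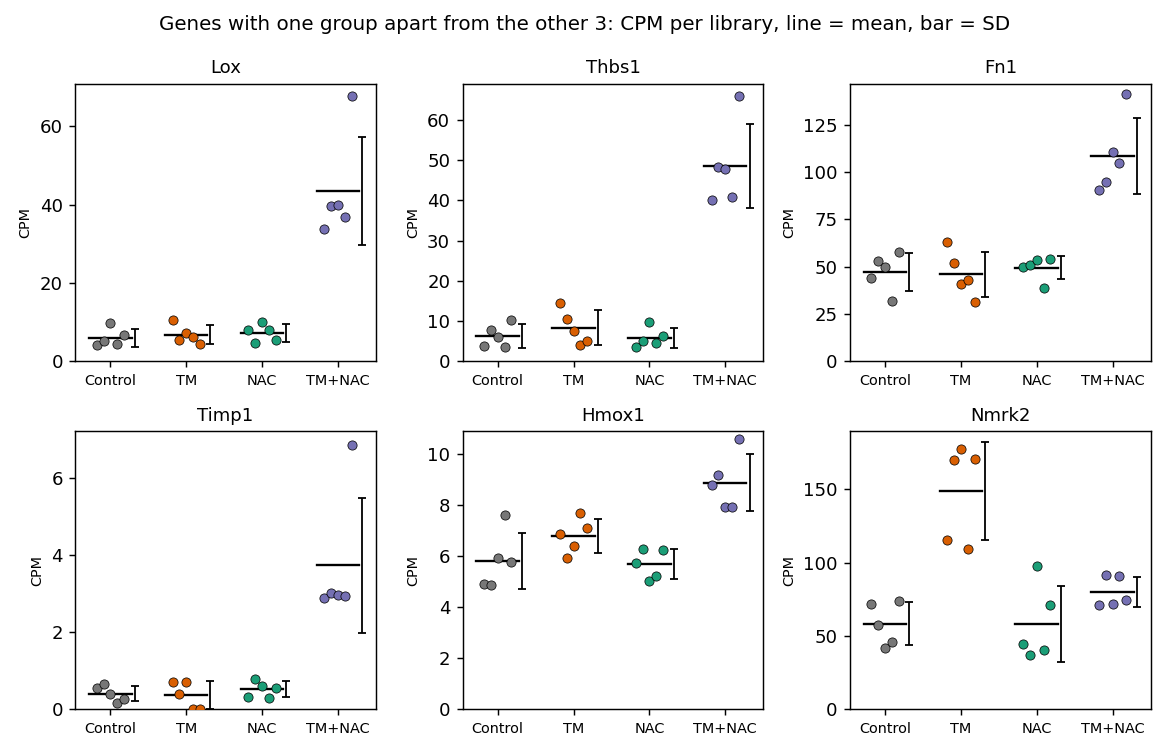
CPM per library (points), group mean (line) and SD (bar, n = 5) for 6 genes in which all 5 libraries of a single group lay above the other 15. For Lox, Thbs1, Fn1, Timp1 and Hmox1 that group is TM+NAC (Lox mean 43.6 CPM against 6.03 to 7.17 CPM elsewhere), and for Nmrk2 it is TM (mean 149 CPM).

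In all, 8 genes (0.0825% of those tested) had every TM+NAC library above every other library, and 2 (0.0206%) had every one below. These 10 and the genes of the other single-group patterns were singled out after their values were seen. Beside the 4 matrix genes the 8 were Hmox1, Nbl1, Camk2n1 and Ttr. Hmox1, the haem-degrading enzyme that oxidative stress induces, had means of 5.82 CPM in controls, 6.81 CPM with TM, 5.69 CPM with NAC and 8.89 CPM with both, and an interaction of 0.42 ± 0.18. Nbl1, a secreted antagonist of bone morphogenetic proteins, had an interaction of 0.31 ± 0.24 and Camk2n1, an inhibitor of the kinase CaMKII, one of 0.13 ± 0.21. Hmox1, Nbl1 and Camk2n1 did not pass (edgeR adjusted p of 0.597, 0.638 and 0.817), so a group that stood highest in every library did not by itself make a measurable interaction. The 2 genes with TM+NAC lowest were Bbs7, a ciliary trafficking component, with -0.44 ± 0.16, and Mical2, an actin-oxidising enzyme, with -0.37 ± 0.15, and neither passed (edgeR adjusted p = 0.597 for each). Mical2 was at 76.3 to 95.6 CPM with TM+NAC and at 97.4 to 146 CPM in the other libraries.

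Ttr, the thyroid hormone carrier transthyretin made in liver and choroid plexus, shows how the scale sets the sign. It was at 0 to 0.181 CPM in controls with 3 of 5 at 0, at 0 in TM library 1 and 2.36 to 4.02 CPM in the other TM libraries, at 0 in NAC library 4 and 3.80 to 5.05 CPM in the other NAC libraries, and at 16.2 to 20.5 CPM with TM+NAC. On the log2 scale the interaction was -3.19 ± 1.42 (edgeR adjusted p = 0.597), a value that depends on the near-zero controls. On the linear scale the TM+NAC mean of 17.9 CPM was 11.7 CPM above the 6.17 CPM that adding the single effects would give. Such a difference of sign between the scales occurred in 79 genes (0.815%).

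Summed markers of other cells were read beside these genes. The 15 markers of inflamed stromal cells include Timp1 and were mostly chosen as high in these TM+NAC libraries, so their sum restates that choice and is no independent evidence. They summed to 51.0 to 108 CPM with TM+NAC against 17.5 to 28.2 CPM in controls, 22.2 to 38.4 CPM with TM and 21.3 to 32.1 CPM with NAC. Of these 15 genes, 2 reached the mean of 1 FPKM and were tested, Timp1 and Ptx3, a secreted pattern-recognition protein (interaction 0.64 ± 0.25, not passing). The Timp1 mean was 0.394 CPM in controls, 0.361 CPM with TM, 0.508 CPM with NAC and 3.72 CPM with TM+NAC. The filter takes the mean over all 20 libraries, to which TM+NAC gave the most for Timp1. The 14 cartilage markers summed to 42.3 to 63.2 CPM with TM+NAC, 13.4 to 29.7 CPM in controls, 15.6 to 31.9 CPM with TM and 14.8 to 44.5 CPM with NAC. The 12 genes of the fibroblast list summed to 1121 to 1615 CPM with TM+NAC and 701 to 1556 CPM elsewhere. The 10 lymphocyte markers stayed at or below 2.33 CPM in sum in every library. The 8 neutrophil markers summed to 0.666 to 0.959 CPM with TM+NAC and 0.212 to 34.6 CPM elsewhere, with Control 5 (12.4 CPM), TM 1 (29.1 CPM), NAC 3 (11.9 CPM) and NAC 5 (34.6 CPM) above the rest. The part of the stromal and cartilage markers in the Lox, Thbs1, Fn1 and Timp1 values was not tested, and in bulk tissue more cells of a type and more RNA per cell cannot be told apart.

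Another form of interaction is a change with TM alone that was smaller when NAC was present. On the log2 scale Ttr had this form too. Nmrk2, which was abundant in every group, is the muscle nicotinamide riboside kinase that makes a precursor of NAD. It was at 71.8, 57.4, 41.8, 46.0 and 74.0 CPM in controls, 116, 170.3, 178, 110 and 171 CPM with TM, 44.1, 37.0, 97.4, 40.3 and 70.9 CPM with NAC, and 70.9, 91.3, 72.0, 91.0 and 74.5 CPM with TM+NAC. All TM libraries lay above the other 15. The log2 fold of TM was 1.35 without NAC and 0.46 with it, an interaction of -0.89 ± 0.33 that did not pass (edgeR adjusted p = 0.597). Pcca, a subunit of the biotin enzyme propionyl-CoA carboxylase, was the other of the 2 genes (0.0206%) with TM highest: 45.5 to 49.3 CPM with TM, 35.1 to 38.8 CPM in controls, 36.9 to 43.4 CPM with NAC and 38.5 to 44.2 CPM with TM+NAC. Its interaction was -0.33 ± 0.09, with the same adjusted p. Only Purb, a single-stranded DNA-binding repressor of actin and myosin genes, had all 5 NAC libraries highest (0.0103%): 47.3 to 59.7 CPM against 36.6 to 45.7 CPM in the other 15. The Purb interaction was -0.39 ± 0.11 and did not pass, and NAC library 4 held its highest value.

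The promoters of Timp1 and Nmrk2 are printed because these genes show the 2 forms most plainly among those with an entry in the RefSeq promoter table (GRCm38.p6; 250 bases before to 50 after the start of the gene). They were searched on both strands for the AP-1 site TGANTCA, the antioxidant response element core TGACNNNGC and the metal response element core TGCACNC or TGCGCNC, and capitals mark the matches. The Timp1 window is chrX:20869916-20870215 on the plus strand and the Nmrk2 window chr10:81201988-81202287 on the minus strand.
Timp1: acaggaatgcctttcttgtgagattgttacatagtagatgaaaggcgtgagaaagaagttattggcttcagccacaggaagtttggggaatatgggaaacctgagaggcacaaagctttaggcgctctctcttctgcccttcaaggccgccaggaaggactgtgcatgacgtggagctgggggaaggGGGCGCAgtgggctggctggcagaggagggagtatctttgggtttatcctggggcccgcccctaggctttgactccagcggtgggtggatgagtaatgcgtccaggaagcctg
Nmrk2: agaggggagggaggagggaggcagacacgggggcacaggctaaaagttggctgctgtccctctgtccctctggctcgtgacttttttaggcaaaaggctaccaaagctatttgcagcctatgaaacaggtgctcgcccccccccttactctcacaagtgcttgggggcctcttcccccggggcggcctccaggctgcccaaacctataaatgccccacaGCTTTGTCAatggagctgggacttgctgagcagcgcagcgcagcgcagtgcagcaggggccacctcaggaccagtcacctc
Timp1 held 1 match to the metal response element core, on the reverse strand with its first base at -63, and Nmrk2 held 1 match to the antioxidant response element core, on the reverse strand at -31. Neither held a match to the AP-1 letters TGANTCA, and variants of that site were not searched. Of 32851 promoters of this length, 25.7% held the metal response element core, 12.4% the antioxidant core and 7.81% the AP-1 site, so such a match is common and is given as a description of these letters alone.

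A further form is a crossing, in which the TM and NAC means lay on the same side of both the control and the TM+NAC mean. Of the 340 genes above 0 at an unadjusted p under 0.05, 321 (94.4%) had Control and TM+NAC means both above the TM and NAC means, against 21.5% of all tested genes. The mirror image, Control and TM+NAC both below, held for 315 of the 366 genes below 0 (86.1%), against 21.1% of all. Selecting genes on the interaction favours these orders, so the shares describe the genes and test nothing. No gene showed the crossing in all libraries: in 0 genes did Control and TM+NAC lie wholly above or wholly below TM and NAC, and in 0 genes did TM lie wholly to one side of Control while TM+NAC lay wholly to the other side of NAC.

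Of the genes named for the smallest p in the upward direction, 8 had this crossing form and none of them passed (edgeR adjusted p = 0.597 for each). Mtx1, a protein import component of the outer mitochondrial membrane, was at 15.6, 13.4, 12.9, 11.2 and 12.1 CPM in controls, 8.85, 10.5, 12.8, 10.7 and 12 CPM with TM, 10.7, 10.8, 9.33, 8.40 and 11.7 CPM with NAC, and 12.5, 15.4, 15.2, 11.97 and 12.6 CPM with TM+NAC. Its NAC and TM+NAC libraries did not overlap, its TM and control libraries did, and the interaction was 0.66 ± 0.17. Fam129b, a cell junction and survival protein, had 0.87 ± 0.22, with means of 9.62, 7.98, 7.51 and 11.4 CPM in the order control, TM, NAC and TM+NAC. H2-Ke6, a hydroxysteroid dehydrogenase of mitochondrial fatty acid synthesis, had 0.77 ± 0.23, and Osgin1, an oxidative stress response protein and NRF2 target, had 0.83 ± 0.25. The 4 remaining were Tvp23b (0.68 ± 0.20), the endosomal protein Zfyve21 (0.66 ± 0.20), the nucleotide receptor P2ry2 (0.47 ± 0.14) and Atcay (1.09 ± 0.34), a neuronal protein whose controls, at 8.10 to 19.6 CPM, ran above the TM libraries, at 3.74 to 8.27 CPM, with a slight overlap. NAC library 4 was the lowest NAC library for Mtx1, Fam129b, Osgin1, Zfyve21, P2ry2 and Atcay, but not for H2-Ke6 or Tvp23b. Without that library the interactions were 0.597 for Mtx1, 0.74 for Fam129b, 0.736 for H2-Ke6 and 0.683 for Osgin1. Those of the remaining genes were then 0.672 (Tvp23b), 0.529 (Zfyve21), 0.377 (P2ry2) and 1.025 (Atcay).

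In the downward direction no gene passed, and 9 of the 12 named genes had TM and NAC means both above Control and TM+NAC (edgeR adjusted p = 0.597 for each). Wdr47, a microtubule-associated protein, was at 5.01, 4.86, 5.87, 6.74 and 5.32 CPM in controls, 6.30, 6.48, 7.01, 7.52 and 6.80 CPM with TM, 8.31, 8.04, 8.08, 7.94 and 7.41 CPM with NAC, and 7.16, 6.66, 6.31, 6.17 and 6.50 CPM with TM+NAC. All its NAC libraries lay above all its TM+NAC libraries, and the interaction was -0.57 ± 0.14. Its TM+NAC mean, 6.56 CPM, lay between the control mean of 5.56 CPM and the TM mean of 6.82 CPM. Sh3bp5, a guanine nucleotide exchange factor that binds the kinase JNK, had TM+NAC closer to the controls: 37.4, 37.6, 41.4, 34.2 and 42.2 CPM in controls, 44.4, 41.0, 44.8, 38.6 and 38.7 CPM with TM, 44.0, 42.9, 42.1, 54.1 and 44.6 CPM with NAC, and 36.4, 35.5, 30.9, 36.5 and 38.6 CPM with TM+NAC, giving -0.46 ± 0.12. The others of that form were Ccdc146 (-0.79 ± 0.20), the deubiquitinase Otub2 (-0.92 ± 0.24), the translational regulator Cpeb1 (-0.49 ± 0.13), the secretase Bace1 (-0.48 ± 0.13), Cemip2 (-0.70 ± 0.19), Tceal5 (-0.75 ± 0.20) and Purb. NAC library 4 was the highest NAC library for Sh3bp5, Ccdc146, Cpeb1, Cemip2 and Purb. Without it their interactions were -0.396, -0.717, -0.438, -0.6 and -0.331, in that order. The remaining genes then had -0.58 (Wdr47), -0.946 (Otub2), -0.482 (Bace1) and -0.763 (Tceal5).

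**Figure D3:**
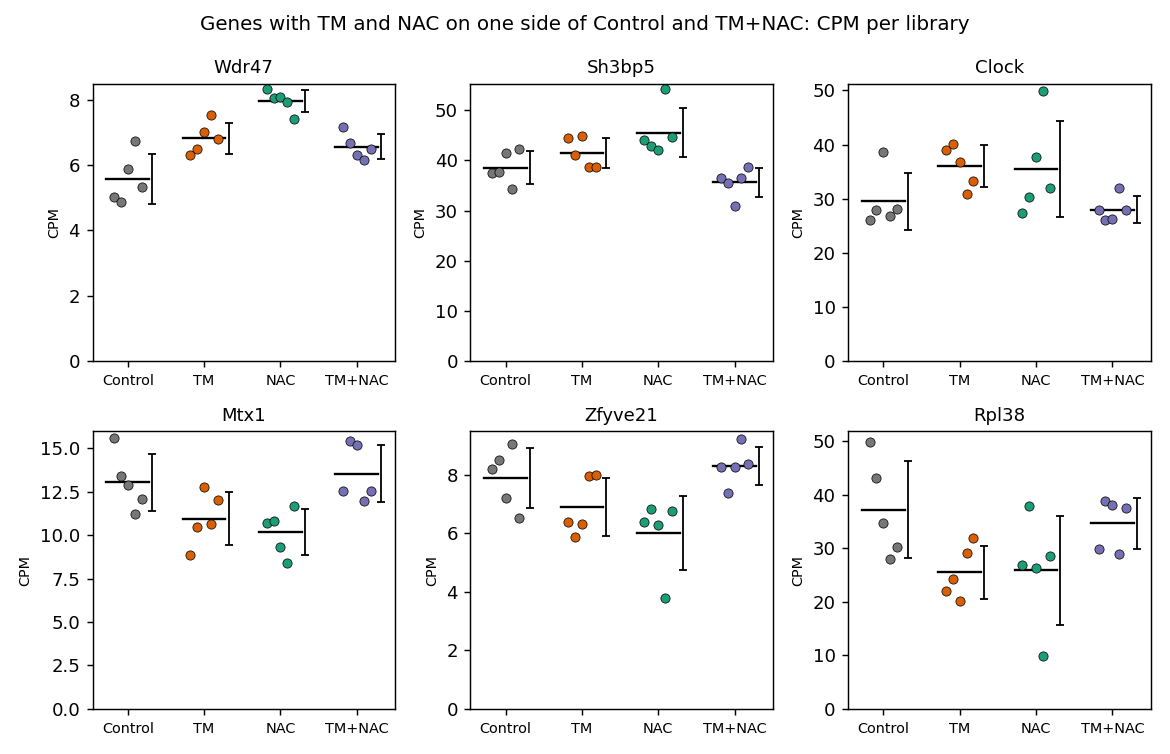
CPM per library (points), mean (line) and SD (bar, n = 5) for 3 genes with negative interactions (Wdr47, Sh3bp5, Clock) and 3 with positive ones (Mtx1, Zfyve21, Rpl38). Control and TM libraries overlap in each gene. NAC library 4 is the farthest from the NAC mean for Sh3bp5 (54.1 CPM), Clock, Mtx1, Zfyve21 and Rpl38. In Wdr47 the TM+NAC mean lies above the control mean.

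Brain-typical transcripts carried the most negative interactions among the 12 genes named for the smallest p below 0. Kif5a, a kinesin motor of axonal transport, was at 0.600 to 1.12 CPM in controls, at 0.901 CPM in TM library 1 and 9.94 to 13.0 CPM in the other TM libraries, at 0.563 CPM in NAC library 4 and 14.9 to 21.2 CPM in the other NAC libraries, and at 13.9 to 21.4 CPM with TM+NAC. The long non-coding RNA Snhg11 had the same libraries low: 0.159 to 1.38 CPM in controls, 0.574 CPM in TM 1, 1.20 CPM in NAC 4 and 11.4 to 22.9 CPM in the other 13 treated libraries. Apart from TM 1 and NAC 4, the treated libraries thus lay well above the controls for both transcripts, and the TM libraries lay below those of NAC and of TM+NAC. The TM+NAC mean of Kif5a was 17.0 CPM against 167 CPM if the folds had multiplied. The interactions were -3.29 ± 0.85 for Kif5a and -3.71 ± 0.90 for Snhg11, neither passing with all libraries (edgeR adjusted p = 0.597 for each).

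All 9 tested neuron markers lay below 0, 6 of them at an unadjusted p under 0.05, with a median of -1.61. The 15 neuron markers under 2 CPM in controls summed to 6.82 to 11.8 CPM in the controls, 8.46 CPM in TM 1, 6.12 CPM in NAC 4, 58.6 to 72.2 CPM in the other TM libraries, 91.9 to 107 CPM in the other NAC libraries and 79.7 to 114 CPM with TM+NAC. The subset was chosen for its low level in controls, which fixes that side; all 20 neuron markers, some of them expressed in muscle, summed to 395 to 490 CPM in controls, 446.5 to 524 CPM with TM, 372 to 589 CPM with NAC and 439.8 to 496 CPM with TM+NAC, and these ranges overlap. Without TM 1 and NAC 4 the test called 23 genes, 3 above 0 and 20 below. Those libraries were picked, with earlier results known, for lacking brain-typical transcripts, so the calls of such transcripts follow from the choice and test nothing. The 3 above were Lox (2.70, edgeR adjusted p = 0.000971), Thbs1 (2.86, adjusted p = 0.00581) and Fn1 (1.24, adjusted p = 0.0138). TM library 1 held the highest TM value of each (10.6, 14.6 and 62.9 CPM), so leaving it out makes these interactions larger. The calls of brain-typical transcripts also ease the adjusted p, so these calls are no independent evidence. The synaptic genes Snap25, Syp and Nrgn are among the 20 below, and are given as values only, with means in the 4 remaining libraries of TM and of NAC of 9.18 and 13.6 CPM for Snap25 against 1.37 CPM in controls and 13.0 CPM with TM+NAC. How such transcripts came to be in muscle libraries was not tested.

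Meg3, an imprinted long non-coding RNA also present in muscle, was among the 3 genes (0.0309%) with all controls lowest, the others being Nsf, a vesicle fusion ATPase, and Fbxw2, a ubiquitin ligase subunit. Meg3 was at 27.5, 23.0, 24.9, 16.9 and 24.0 CPM in controls and 31.1, 38.5, 40.4, 40.5 and 37.7 CPM with TM. It was at 55.9, 50.1, 55.4, 28.2 and 56.6 CPM with NAC and 42.1, 47.8, 45.1, 43.5 and 58.4 CPM with TM+NAC. TM library 1 and NAC library 4 were the lowest of their groups, as they were for Kif5a. The Meg3 interaction was -0.75 ± 0.22 (edgeR adjusted p = 0.597). Without those libraries it was -0.96, a value that leaving out the lowest TM and NAC libraries makes larger in size and that is given with no test.

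**Figure D4:**
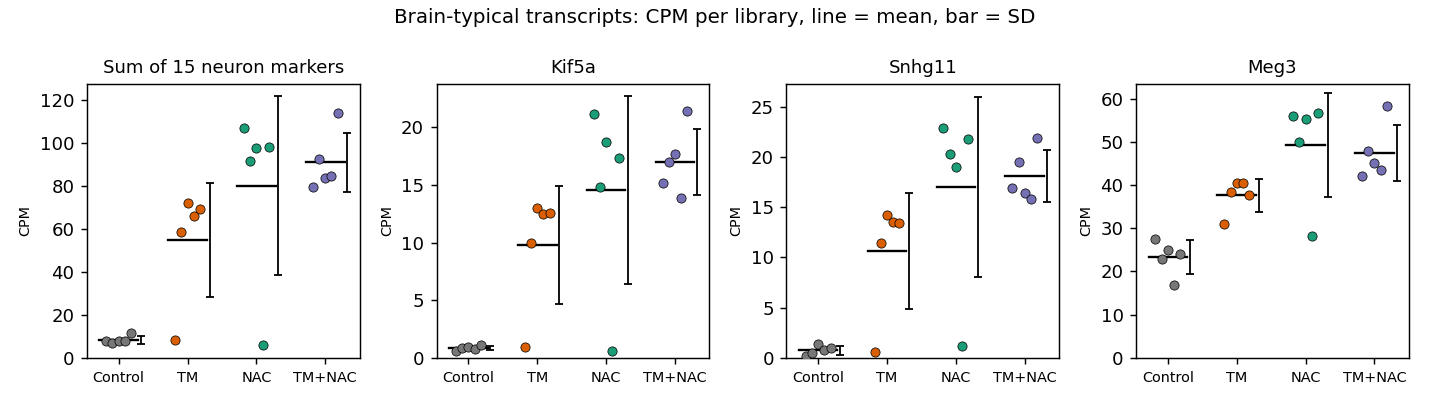
CPM per library (points), mean (line) and SD (bar, n = 5) for the sum of 15 neuron markers, Kif5a, Snhg11 and Meg3. TM library 1 and NAC library 4 lie with the controls in the first 3 panels (marker sums of 8.46 and 6.12 CPM), while the remaining treated libraries sum to 58.6 CPM or more.

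Genes of the oxidative phosphorylation system lay mostly above 0 without a member passing. Complex I, the entry point of electrons from NADH, had 34 of 36 subunits above 0, with a median interaction of 0.39 and 3 subunits at an unadjusted p under 0.05, where 7.28% of all tested genes were at that p and 3.51% at that p above 0 (Ndufa3, 0.71 ± 0.31; Ndufa12, 0.60 ± 0.27; Ndufb8, 0.50 ± 0.23). The nuclear genes of complex IV, the copper-containing cytochrome c oxidase, and its assembly had 23 of 29 above 0, a median of 0.29 and 8 at that p, among them Cox7c (0.43 ± 0.17) and Cox8b (0.78 ± 0.33). ATP synthase had 15 of 15 above 0 (median 0.27) and complexes II and III 13 of 16 (median 0.25). The median TM effect of complex I was -0.07 without NAC and 0.27 with it. In log2 level relative to the mean of all libraries, the median library of the complex I genes stood at 0.09 in controls, -0.07 with TM, -0.15 with NAC and 0.08 with TM+NAC, and the groups overlapped. NAC library 4 was the lowest of all, at -0.85. Without it the complex I median interaction was 0.24, that of nuclear complex IV 0.18, of ATP synthase 0.17 and of complexes II and III 0.18.

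The 13 transcripts of the mitochondrial genome, which encode the remaining subunits of the same complexes, all lay below 0, with a median of -0.23 and none at an unadjusted p under 0.05. Their median was -0.09 without NAC library 4, the library with the largest mitochondrial share. Cytosolic ribosomal proteins lay on the same side as the nuclear respiratory genes, with 49 of 50 above 0, a median of 0.28 and 6 above 0 at an unadjusted p under 0.05. Over all tested genes 49.4% lay above 0 and 3.51% were above 0 at that p. Rpl38 was the ribosomal gene of smallest p (0.97 ± 0.34): 49.8, 43.2, 34.8, 28.1 and 30.3 CPM in controls, 22.0, 24.3, 20.2, 29.2 and 31.8 CPM with TM, 26.9, 37.9, 26.3, 9.83 and 28.5 CPM with NAC, and 29.9, 38.8, 38.0, 28.9 and 37.5 CPM with TM+NAC. Control and TM overlapped, as did NAC and TM+NAC, and the 9.83 CPM was NAC library 4. Without that library the ribosomal median was 0.17. The part of that library's depth and mitochondrial share in these medians was not tested beyond leaving it out.

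**Figure D5:**
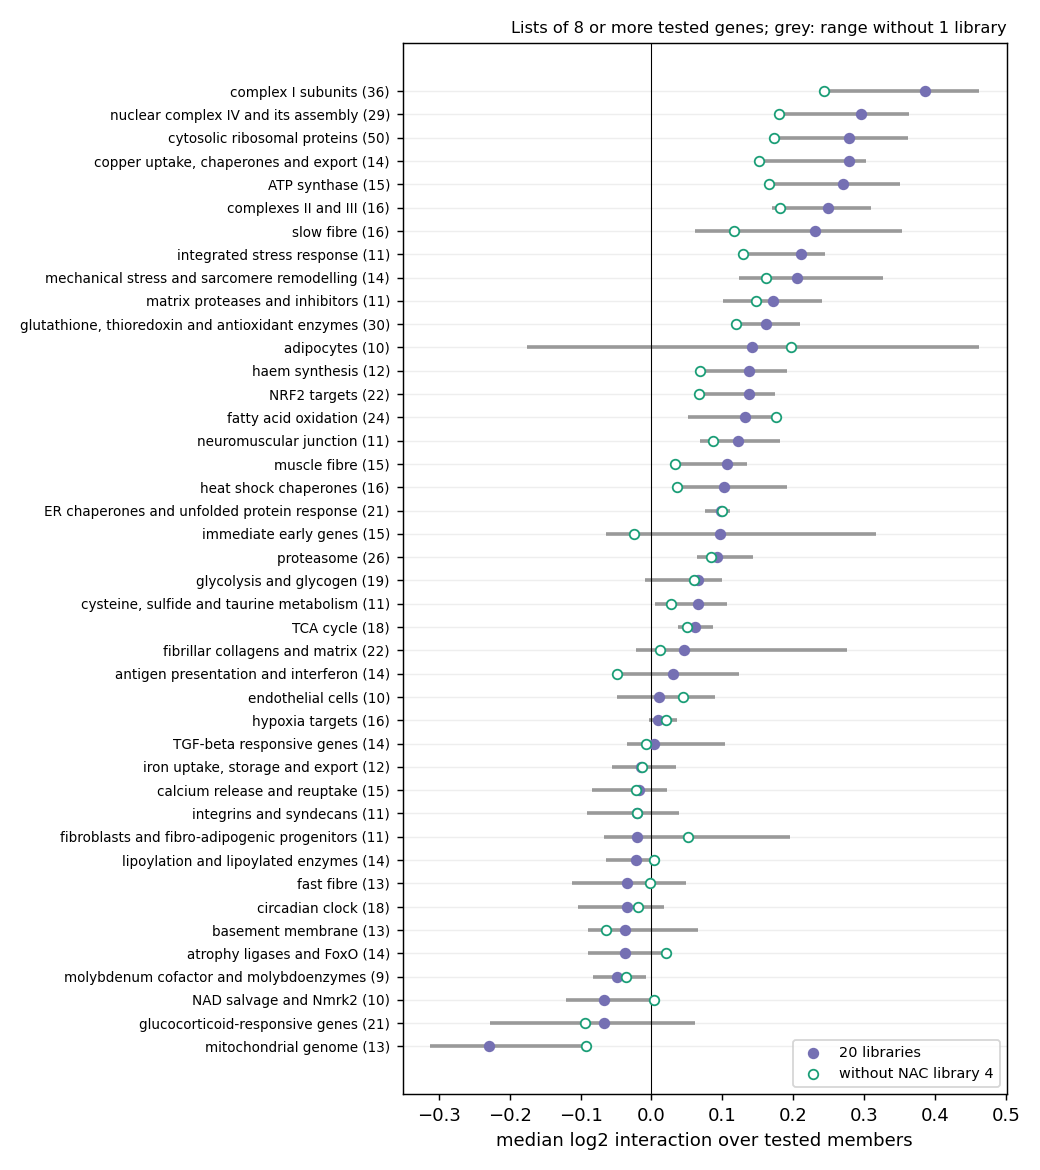
Median log2 interaction of each gene list with at least 8 tested members (number in brackets; the neuron list is left out for its range), with all 20 libraries (filled), without NAC library 4 (open), and over the fits that leave out 1 library (grey line). Complex I is highest at 0.39 and moves to 0.24 without NAC library 4, and the mitochondrial genome is lowest at -0.23.

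Copper handling was measured with 14 tested genes of 20 listed, of which 10 lay above 0 with a median of 0.28 (0.15 without NAC library 4), and none passed. At an unadjusted p under 0.05 stood 3 genes, all above 0: the copper chaperones Ccs (for superoxide dismutase, 0.42 ± 0.19), Cox17 (for cytochrome c oxidase, 0.55 ± 0.25) and the copper-insertion factor Cox11 (0.37 ± 0.17). Over all tested genes 49.4% lay above 0 and 3.51% were above 0 at that p. Ccs was at 8.51, 10.1, 7.86, 7.95 and 8.44 CPM in controls, 7.28, 6.12, 8.24, 8.45 and 8.80 CPM with TM, 7.98, 6.65, 7.51, 5.76 and 9.57 CPM with NAC, and 7.85, 9.72, 8.07, 8.50 and 11.2 CPM with TM+NAC. The 4 groups overlapped. Cox17 was at 28.0 to 44.1 CPM in controls, 26.2 to 39.6 CPM with TM, 16.9 to 43.1 CPM with NAC and 30.8 to 39.5 CPM with TM+NAC, again with overlap and with NAC library 4 lowest.

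The copper importer Slc31a1 had an interaction of 0.08 ± 0.13 and the chaperone Atox1, which passes copper to the exporting ATPases, one of 0.41 ± 0.34 (0.21 without NAC library 4). Mt1, a metallothionein that binds copper and zinc, was at 5.30 to 11.1 CPM in controls, 5.26 to 7.56 CPM with TM, 4.08 to 10.4 CPM with NAC and 8.16 to 14.0 CPM with TM+NAC, with an interaction of 0.59 ± 0.35 (0.35 without Control library 4). The other tested members of the copper handling list were the metallothionein Mt2 (0.35), the mitochondrial copper factors Cox19 (0.31) and Sco1 (-0.05), Commd1 (0.25), the metalloreductases Steap3 (0.09) and Steap4 (-0.30), Slc31a2 (-0.09) and Xiap (-0.30), and none was at an unadjusted p under 0.05. All 7 tested copper-dependent enzymes lay above 0, with a median of 0.14 (0.08 without NAC library 4 and 0.23 without TM library 1), and Lox was the single one to pass. Sod1, the cytosolic superoxide dismutase, had 0.14 ± 0.11, the secreted Sod3 had 0.54 ± 0.34 and Loxl1, a lysyl oxidase relative needed for elastic fibres, had 0.46 ± 0.26, while Loxl2, Pam and Aoc3 lay at 0.01, 0.06 and 0.07. The next highest value after that of Lox was thus 0.54, and no test compared the enzymes with each other.

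Redox genes, the set nearest to the known action of NAC, held no gene that passed. Of 22 tested NRF2 targets (genes of the antioxidant transcription factor NRF2) 13 lay above 0, with a median of 0.14, or 0.07 without NAC library 4. Beside Osgin1 and Hmox1 none was at an unadjusted p under 0.05. The next NRF2 targets by smallest p were Me1 (-0.24), Gstp1 (0.39), Gstm2 (0.29) and Ftl1 (0.30). Of 30 glutathione, thioredoxin and antioxidant enzymes 24 lay above 0, with a median of 0.16. In that list Gpx3 (0.49 ± 0.20) and Gpx7 (0.52 ± 0.25), both glutathione peroxidase family members, lay above 0 at an unadjusted p under 0.05 and the methionine sulfoxide reductase Msrb3 (-0.47 ± 0.19) below. Cysteine, sulfide and taurine metabolism had 6 of 11 above 0 with a median of 0.07 and none at that p. Over all tested genes 49.4% lay above 0 and 7.28% were at that p.

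The matrix list was divided between a few large values and a centre near 0. Of 22 tested fibrillar collagen and matrix genes, 11 lay above 0 and 11 below, the median was 0.05, and without TM library 1 it was 0.28. The 4 at an unadjusted p under 0.05 were Lox, Thbs1, Fn1 and Timp1. Col1a1, the main fibrillar collagen chain, was at 27.0 to 95.2 CPM in controls, 39.3 to 124 CPM with TM, 30.4 to 125.6 CPM with NAC and 72.0 to 164 CPM with TM+NAC, with wide overlap and an interaction of 0.31 that ran from 0.08 without TM+NAC library 3 to 0.605 without TM library 1 (0.10 without NAC library 4, 0.13 without Control library 3, 0.50 without Control library 4 and 0.57 without NAC library 3). The 14 TGF-beta responsive genes had a median of 0.00, with Thbs1 and Fn1 at an unadjusted p under 0.05 above 0, and Smad3 (-0.49 ± 0.17), a transducer of the pathway, and Skil (-0.48 ± 0.17), its feedback inhibitor, below. Basement membrane genes had 4 of 13 above 0 and none at that p. Among all tested genes 49.4% lay above 0, 7.28% were at that p and 3.51% were above 0 at that p. Thbs1 and Fn1 belong to both the matrix and the TGF-beta list and are counted in each.

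Muscle genes had interactions of both signs, none passing. Of 14 mechanical stress and sarcomere remodelling genes 11 lay above 0, with a median of 0.20. Ankrd2, a stretch-responsive ankyrin repeat protein, had 1.03 ± 0.35, Csrp3, a Z-disc protein, 1.15 ± 0.47 (0.67 without Control library 4), and Mybph, a myosin-binding protein, 0.91 ± 0.38. Mybph was at 135, 263, 236, 181 and 231 CPM in controls, 68.1, 126, 51.7, 101 and 152 CPM with TM, 146, 91.0, 85.5, 73.3 and 166 CPM with NAC, and 123, 89.1, 73.5, 89.1 and 129 CPM with TM+NAC. The controls were highest on the mean and the 3 treated groups overlapped, and the log2 fold of TM was -1.07 without NAC and -0.16 with it. The slow fibre list had 13 of 16 above 0 with a median of 0.23, or 0.06 without TM library 4, and the fast fibre list 6 of 13 with a median of -0.03. Of all tested genes 49.4% lay above 0. Ankrd2 and Csrp3 stand in both the mechanical stress and the slow fibre list, so these lists are not independent. Myh4, the fastest myosin heavy chain of mouse muscle, had -0.37 ± 0.16.

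Clock and hormone-responsive genes gave a few negative values. Clock and Arntl encode the partners of the activator that drives the circadian cycle. Clock was at 26.1, 27.9, 38.7, 26.8 and 28.1 CPM in controls, 39.1, 40.0, 36.8, 30.9 and 33.2 CPM with TM, 27.5, 30.4, 37.6, 49.98 and 32.02 CPM with NAC, and 27.9, 25.98, 26.2, 31.99 and 28.0 CPM with TM+NAC, with an interaction of -0.63 ± 0.20. Its groups overlapped, and Arntl had -0.58 ± 0.22. The list of 18 clock genes had a median of -0.03. Sgk1, a kinase that glucocorticoids and osmotic stress induce, was at 153, 164, 186, 197 and 191 CPM in controls, 161, 253, 167, 239 and 210.2 CPM with TM, 267, 297, 321, 296 and 189 CPM with NAC, and 146, 222, 225, 190 and 204 CPM with TM+NAC. Of its NAC libraries 4 lay above all other 15, and the interaction was -0.68 ± 0.21. None of the 3 genes passed (edgeR adjusted p = 0.597 for each), and the glucocorticoid list of 21 genes had a median of -0.07.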

How the data were processed

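The authors deposited a table of 31618 genes that gives, per the file headers, a count and an FPKM value for each library. The deposited counts are whole and carry no normalization; the deposited FPKM values were divided by transcript length and by depth. Per the submitters' processing notes, cutadapt 1.9, FastQC, HISAT2 2.2.1, StringTie and GRCm38 were used; how counts were made, strand use and the annotation are not stated there. GENCODE M21 held 99.73% of the IDs, 90.79% of them at an identical position. Libraries were grouped by the treatment label.

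FPKM served as the filter (mean of at least 1 over the 20 libraries) and counts were tested: TMM scaling, a single edgeR quasi-likelihood model of the 4 groups (edgeR 4.0.16, R 4.3.3), two-sided, Benjamini-Hochberg adjusted over 9696 genes. SE is the log2 value divided by the square root of F. On simulated data with 50 genes changed at each fold size it made 6 false calls in all. Alternatives used limma 3.58.1 and DESeq2 1.42.0. No 2 libraries of a group were alike within counting noise (lowest chi-square per degree of freedom 22.87).

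Named were the genes called, filled up to 12 in each direction by smallest p, up to 6 members of each list by smallest p, of which the text gives some, and all tested members of the copper lists; genes with no symbol, predicted genes, clone names and pseudogenes were left out of the first choice. The members, the gene lists and this rule were chosen with earlier results of these data known, as was leaving out TM library 1 and NAC library 4, and no list was tested as a set. Levels are TMM-scaled CPM. The separate result of 1 gene the rule names is not reported here, and it stays in every fit, count and list.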

Additional observations from a re-analysis of the deposited data

Results flagged for a closer look

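The interaction of Lox (log2 2.44) was the 1 difference between the TM effects with and without NAC that passed the test over all genes. A library far from the other 4 of its group, by Dixon's criterion at the 95% level, was found in 26 of 168 groups looked at (24 named genes and 18 marker sums in 4 groups each), where chance gives about 1 in 20, or 8.4. NAC library 4 was the one set apart for Fn1 (38.8 CPM), Zfyve21 (3.78 CPM), Snhg11 (1.20 CPM), Ccdc146 (9.08 CPM), Sh3bp5 (54.1 CPM) and Purb (59.7 CPM). TM library 1 was set apart for Snhg11 (0.574 CPM), Kif5a (0.901 CPM) and the summed markers of cartilage (31.9 CPM), tendon (251 CPM), inflamed stromal cells (38.4 CPM) and neutrophils (29.1 CPM). TM+NAC library 5 was high for Lox (67.8 CPM), Timp1 (6.86 CPM) and the inflamed stromal sum (108 CPM).

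The other libraries so found were TM library 3 for Osgin1 (8.12 CPM) and Bace1 (88.4 CPM), Control library 1 for Otub2 (24.7 CPM), TM+NAC library 3 for Cpeb1 (61.9 CPM) and the tendon sum (297 CPM), and NAC library 5 for Pcca (36.9 CPM). Control library 3 was high in the sums of astrocyte and oligodendrocyte markers (185 CPM) and of Schwann cell markers (375 CPM), Control library 4 low in the inflamed stromal sum (17.5 CPM), Control library 5 high in the neutrophil sum (12.4 CPM) and NAC library 3 low in the mast cell sum (4.51 CPM).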

How the results depend on the processing

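Against 1 gene called and 706 at an unadjusted p under 0.05, median-ratio, no or quantile scaling and limma on log2(FPKM + 0.1) called Lox alone. Other tests called 9 (DESeq2), 3 (limma on log2(FPKM + 1)), 0 (edgeR robust) and 6 (limma voom with library weights, 1092 at an unadjusted p under 0.05). Filters gave 7 called and 2849 (none), 0 and 330 (mean FPKM of at least 5, where Lox was not tested), and 10 and 1578 (filterByExpr); 6 of the 7 and 8 of the 10 lay under a mean of 1 FPKM. With the replicate block 0 genes were called (778 at an unadjusted p under 0.05, Lox edgeR adjusted p = 0.0604). Deviations of 30 same-numbered pairs had r from -0.269 to 0.381 (median 0.0505, 11 over 0.1). Differently numbered pairs were not measured beside them, so whether the replicate numbers pair the libraries cannot be told. Leaving out 1 library gave 0 to 7 called (0 in 12 of 20 fits), 447 to 1270 at an unadjusted p under 0.05, and 0 to 3 genes with TM effects in opposite directions that overlapped in no library, against 0; no filter and filterByExpr gave 1 such gene each. Without TM 1 and NAC 4 there were 23 called and 388 at an unadjusted p under 0.05. The neuron marker sum as a covariate gave 0 and 2102. Chosen after seeing the data were leaving out Control 4 and NAC 4 (10 called, 3 with opposite TM effects) and the sum of neuron markers low in controls as a covariate (1311 called and 3289, a fit in which TM 1 and NAC 4 separate that sum from their groups). Signs turned for Snap25 (1.23, low neuron covariate), Ttr (0.838 with limma on log2(FPKM + 1), 3.02 with the low neuron covariate and 11.7 CPM on the linear scale) and Camk2n1 (-0.086 without TM 1 and NAC 4); the cause was not tested. Thbs1 passed under 10, Fn1 under 7 and Timp1 under 1 of 35 alternatives. Having 5 libraries a group limits detection, and the part of depth in it was not tested. Interactions above 2-fold in size, such as those of Thbs1 and Timp1, did not pass with all libraries.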
